A study of Mus musculus with 14 samples.

Results

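The cells described here were non-dividing cells of the mouse hindbrain at E18.5, shortly before birth, with high *Eomes*, a group proposed as unipolar brush cells. They were selected on their own unique molecular identifiers (UMIs): at least 5 UMIs of *Eomes*, none of *Mki67* or *Top2a*, at least 1000 genes and under 10% mitochondrial UMIs. In all, 8556 of the 55054 kept E18.5 cells (15.5%) met this rule, and they are called Eomes-high cells below. The series held 122658 kept cells in 14 libraries. Because *Eomes*, *Mki67* and *Top2a* chose the cells, their levels are given only as a description.

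Unipolar brush cells are excitatory interneurons of the cerebellar granular layer and the cochlear nucleus. They receive a mossy fiber on a single brush-like dendrite and relay the input to granule cells. They are born in the cerebellar rhombic lip, the *Atoh1* domain that also produces granule neurons, and keep the T-box transcription factor gene *Eomes* (*Tbr2*) as they migrate. A class of them is known for calretinin, the calcium buffer encoded by *Calb2*.

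The study used single-cell RNA sequencing to ask how a hypomorphic *Atoh1* allele alters hindbrain neurons. At E18.5 there were 3 control embryos and 3 mutant embryos on a C57BL/6J background, with 1 embryo per library and each mutant paired with a littermate control. The paper lists the E18.5 embryos of replicates 1 and 2 as male and those of replicate 3 as female. Control embryos were *Atoh1*Cre/+; *Rosa*lsl-tdTomato/+ and mutant embryos were *Atoh1*Cre/S193A; *Rosa*lsl-tdTomato/+ (*Atoh1*S193A/-), so that Cre took the place of 1 *Atoh1* coding region in both groups and the controls also carried 1 null allele. Whole hindbrains were dissociated, and TdTomato-positive, DAPI-negative cells, which descend from cells that once expressed *Atoh1*, were sorted. Each E18.5 library held 108239001 to 183911797 UMIs and 8061 to 11355 kept cells. Eomes-high cells had median depths of 13007.5, 9610.5 and 11578 UMIs in the control libraries and 11044, 10002 and 8674 UMIs in the mutant libraries, in each library below the median of non-dividing cells with no *Eomes* UMI (10909 to 15829.5 UMIs over the libraries). Any 2 of the libraries shared 14 to 34 cell barcodes.

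The markers given for unipolar brush cells were present in the selected cells, but not in every one of them. Levels are given in CPM, the share of a gene in all UMIs of a population in a library, scaled to a fixed total as is usual for sequencing counts. *Calb2*, which encodes the calcium buffer calretinin, stood at 555, 398 and 562 CPM in the control libraries and 571, 565 and 745 CPM in the mutant libraries, against 24.8 to 35.8 CPM in non-dividing cells with no *Eomes* UMI. *Grp*, which encodes gastrin-releasing peptide, stood at 124, 71 and 54 CPM in controls and 96.9, 107 and 79.8 CPM in mutants, against 1.86 to 5.04 CPM in the other cells. *Samd3*, a gene for a sterile alpha motif protein at chr10:26229707-26272172 (mm10, plus strand), stood at 99.6, 95.7 and 97.6 CPM in controls and 111, 128 and 120.4 CPM in mutants, against 0.436 to 1.21 CPM. For all 3 genes the lowest library of Eomes-high cells was well above the highest library of the other cells.

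The share of Eomes-high cells that carried each marker was read after each cell was thinned to 5000 UMIs, beside cells with the profile of newborn granule neurons, which should lack the markers. These *Nhlh1* cells were non-dividing cells with no *Eomes* UMI, at least 3 *Nhlh1* UMIs and no UMI of the Hox genes of paralogs 2 to 5, with median depths of 11223 to 16975.5 UMIs. *Samd3* was detected in 28.2 to 35.1% of Eomes-high cells and 0 to 0.439% of *Nhlh1* cells, and unthinned in 36 to 44.6% and 0.402 to 2.47%. *Calb2* was detected in 26.9 to 37.1% against 0.483 to 3.8% (30.7 to 42.3% and 2.88 to 5.88% unthinned). *Grp* was detected in 10.7 to 16.1% against 0 to 0.543% (14.4 to 20.7% and 0 to 1.23% unthinned). Each of the 3 markers was thus seen in a minority of the selected cells, and in a smaller share of *Nhlh1* cells. Of the homeobox genes of the lineage, *Otx2* was more widespread, in 77.8 to 83.5% against 14.7 to 23.6% of thinned cells, while *Lmx1a*, in 34.3 to 38.2% against 0 to 1.09%, overlapped *Samd3* and *Calb2*. *Plcb4*, at 11 to 15.9% against 9.21 to 13%, was near the level in *Nhlh1* cells.

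The label was therefore only partly met. The rule also took cells with *Tlx3* and *En1*, cells with *Bcl11b* and *Nr2f2*, and cells with *Nhlh1*, which are described below. The 13 glial genes summed to 104 to 202 CPM in controls and 121 to 255 CPM in mutants, against 357 to 939 CPM in the other non-dividing cells. In the same order, the 14 genes of inhibitory neurons summed to 70.1 to 85.1 and 81 to 91.3 CPM against 139 to 203 CPM, and the 8 genes of microglia to 1.51 to 18.7 and 1.16 to 4.77 CPM against 9.02 to 59.3 CPM. The 7 genes of endothelium and pericytes summed to 2.65 to 3.96 and 3.06 to 4.04 CPM against 20.5 to 48.3 CPM, the 5 erythroid genes to 2.06 to 28.9 and 1.02 to 5.03 CPM against 0.482 to 386 CPM, and the 5 genes of the choroid plexus to 17.9 to 25.3 and 19.7 to 64 CPM against 5.65 to 1056 CPM. The glial gene *Fabp7* was found in 12.9 to 36.8% of Eomes-high cells and *Lhx1*, of the inhibitory list, in 19.7 to 26%. *Folr1*, the only choroid plexus gene that could be tested, was found in 14.2 to 18.1% and averaged 17 against 4.88 CPM, higher in Eomes-high cells than in the other non-dividing cells. The genotypes overlapped in all 6 lists, and no gene of theirs was at 0 in all libraries. A UMI of a Hox gene of paralogs 2 to 5, which marks the hindbrain behind the cerebellum, was found in 8.35 to 31.4% of Eomes-high cells and in 7.76 to 31.1% of dividing *Barhl1* cells with no *Eomes* UMI. A Scrublet doublet score within the top 7.5% of a library was found in 6.4 to 9.08% of Eomes-high cells.

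*Samd3* is shown with its promoter because it had the largest difference from the other non-dividing cells and because *Eomes* encodes a T-box protein. The 250 bases before its RefSeq start (GRCm38.p6, plus strand, chr10:26229457-26229706) are printed 5′ to 3′, with the T-box letters AGGTGTGA, here on the opposite strand as TCACACCT, in capitals.
*Samd3*: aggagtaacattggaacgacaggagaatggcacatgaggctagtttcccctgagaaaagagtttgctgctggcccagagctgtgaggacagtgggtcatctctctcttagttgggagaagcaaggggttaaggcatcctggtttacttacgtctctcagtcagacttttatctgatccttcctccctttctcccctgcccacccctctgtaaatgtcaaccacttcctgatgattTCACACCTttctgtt
The first of these capitals lay 15 bases before the start. Both strands were searched for AGGTGTGA in the same window of each gene. Of genes with a promoter in the RefSeq table, it was present in 3 of 138 called higher in Eomes-high cells (2.17%, of 195 called), in 2 of 295 called lower (0.678%, of 378 called), in 57 of 7528 genes tested (0.757%) and in 350 of all 27025 genes in the table (1.3%). The 3 genes called higher were *Pgm2*, *Prlr*, the prolactin receptor gene, and *Samd3*. A match of letters is a description of the sequence and not a binding site.

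Levels of the accompanying genes were followed across all non-dividing E18.5 cells by their *Eomes* UMIs. There were 15322 cells with 0, 9684 with 1 to 4, 3663 with 5 to 9, 3428 with 10 to 19 and 1465 with 20 or more. *Samd3* averaged 0.785, 5.36, 50.6, 135 and 179.9 CPM across these 5 bins, and *Tac2*, which encodes neurokinin B, averaged 1.81, 5.39, 41, 176 and 324 CPM. *Grp* averaged 3.34, 3.01, 29.2, 104 and 178 CPM. These 3 genes were highest in the top bin. *Calb2* behaved differently, with 423 CPM at 5 to 9, 716 CPM at 10 to 19 and 565 CPM at 20 or more, where its libraries ranged from 301 to 785 CPM.

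Transcription factor genes followed either direction along *Eomes*. *Lmx1a* averaged 6.61 CPM in cells with no *Eomes* UMI and 121 CPM in the top bin, and *Otx2* averaged 106 and 530.3 CPM in the same bins. *Nhlh1*, a gene of newborn granule neurons, was at 116 CPM with 1 to 4 UMIs and 57.2 CPM in the top bin. *Tlx3* went from 92.4 to 14.8 CPM and *Sox11* from 1195 to 574 CPM between the same bins. *Tlx3* and *Sox11* were lowest in the top bin, while *Nhlh1* was about as low there as in cells with no *Eomes* UMI, at 57.9 CPM. The guidance receptor gene *Nrp2* was at 21.5, 6.5, 16.6, 54.6 and 99.1 CPM, whereas the ephrin receptor gene *Epha5* was at 212 CPM with 0 and 34.4 CPM with 20 or more. *Nts*, the neurotensin gene, was highest at 5 to 9 UMIs, with 229 CPM against 62.9 CPM in the top bin.

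Just inside the limit, 1002 cells had exactly 5 *Eomes* UMIs, and just outside it 1246 had exactly 4. *Samd3* was at 25.3 CPM (libraries 14.6 to 36.7) inside and 17.6 CPM (4.07 to 30.4) outside. *Calb2* was at 251 CPM (109 to 366) and 163 CPM (79.6 to 260.1), and *Lmx1a* at 42.1 CPM (34.7 to 49.6) and 34.7 CPM (27 to 40.1). The libraries of the 2 sides overlapped for each of these genes, so the limit cut through a gradient of levels.

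**Figure D1:**
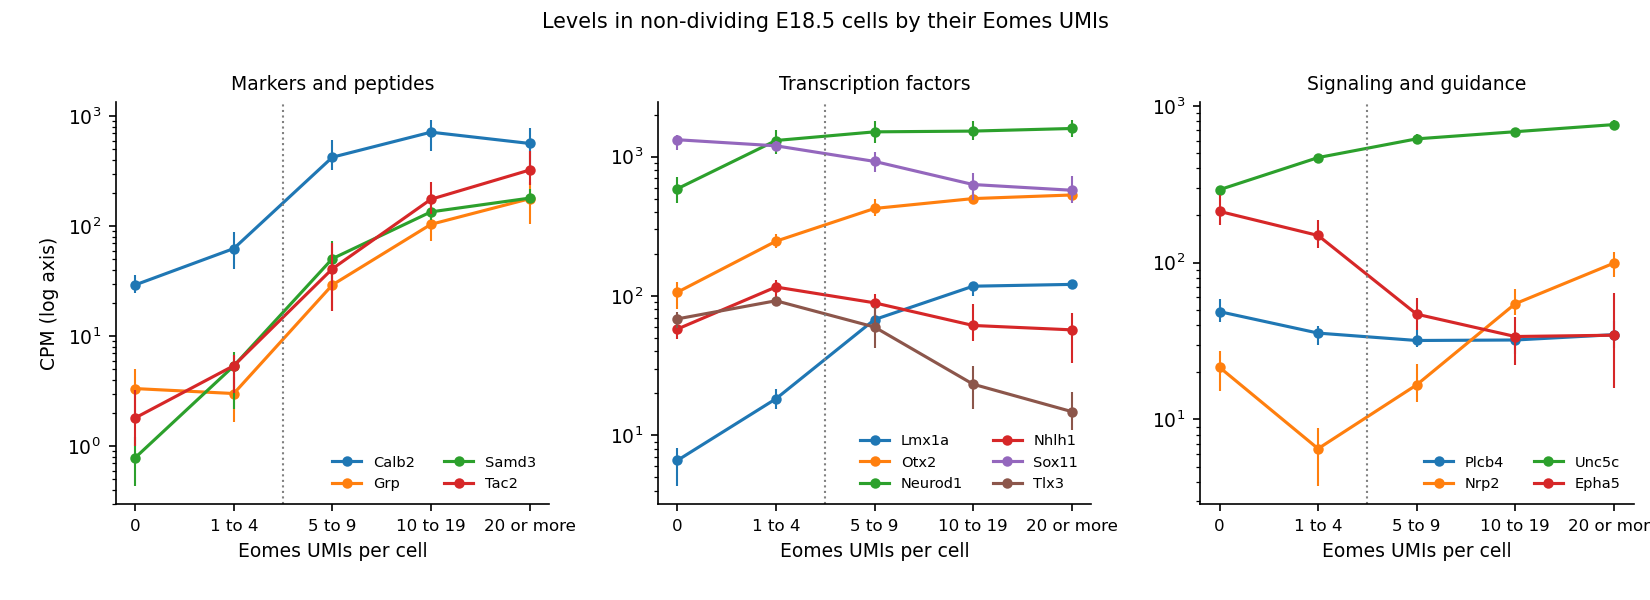
Mean CPM over the 6 E18.5 libraries (points, log axis) with the lowest and highest library (vertical lines) in non-dividing cells, by *Eomes* UMIs per cell. The dotted line marks the limit of 5 UMIs. *Samd3* goes from 0.785 to 179.9 CPM and *Epha5* from 212 to 34.4 CPM between the first and the last bin.

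Eomes-high cells were next compared with the other non-dividing cells of the same embryos, those with no *Eomes* UMI. UMIs were summed per library and population and tested with edgeR, with the library as a block, over 9539 genes. Differences are on the log2 scale, Eomes-high cells minus the others, with their SE. Here and for the genotype changes below, SE is the absolute log2 value divided by the square root of the edgeR F statistic. Genes were called at a false discovery rate (FDR) under 0.05 and an absolute difference above 1. In this fit 195 genes (2.04%) were higher in Eomes-high cells and 378 (3.96%) were lower. The 14 immediate early genes, which also respond to the handling of cells, summed to 1583 to 1811 CPM in control and 1559 to 1983 CPM in mutant Eomes-high cells, against 1118 to 1306 CPM in the other cells. Of the 11 tested *Atf3* was higher and *Fosb* was lower. A mitochondrial limit of 5% would keep a smaller share of Eomes-high cells than of all kept cells in each of the 6 libraries, for example 464 of 1429 against 5288 of 9133 in control replicate 3, and under it 202 genes were higher and 344 lower, 475 of them among the calls above. The markers *Samd3*, *Calb2* and *Grp*, which were named together with the cells, differed by 7.05 ± 0.10, 4.21 ± 0.08 and 4.60 ± 0.27. Of 18 transcription factor genes listed for unipolar brush cells, 4 were higher and none was lower, with a median difference of 0.38 beside 0 for all genes. *Lmx1a* averaged 97.7 ± 5.44 CPM (SD, n = 6 libraries) against 6.61 ± 1.45 CPM, a difference of 3.84 ± 0.09 (edgeR FDR = 6.13e-09), and was higher in 6 of 6 libraries. *Otx2* averaged 475 ± 33.8 CPM against 106 ± 16.8 CPM (2.12 ± 0.07, FDR = 8.35e-08). The other 2 were *Ebf2*, at 20.5 against 7.88 CPM, and *Sox4*, a gene of young neurons, at 2214 against 1005 CPM.

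Signaling genes listed for unipolar brush cells included *Calb2*, which was higher as given above, and *Kctd12*, a GABA-B receptor subunit gene, which was lower at 26.3 against 54.3 CPM. *Plcb4*, which encodes a phospholipase C beta, stood at 27.8 to 36.4 CPM against 42 to 58.3 CPM, a difference of -0.63 ± 0.05 that was not called. Of the 13 glutamate receptor genes tested 1 was higher and 6 were lower, among the latter *Grm5* at 27.6 against 87.3 CPM, *Gria4* at 16 against 44.4 CPM and *Grik3* at 16.8 against 34.9 CPM. *Slc17a7*, which encodes a vesicular glutamate transporter, was higher at 19.5 against 9.36 CPM.

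Neuropeptide genes were divided, with 3 of 10 higher and 3 lower. *Tac2* stood at 172, 103 and 113 CPM in controls and 201, 166 and 151 CPM in mutants, against 0.998 to 3.23 CPM, a difference of 6.32 ± 0.12 (edgeR FDR = 4.57e-09), the second after *Samd3* in size. *Grp* and *Nts* were the other 2 higher genes. *Nts* averaged 141 ± 91.1 CPM, with a single mutant library at 324 CPM and the other 5 libraries at 82.7 to 125 CPM. *Sst*, the somatostatin gene, was lower at 19.1 against 135 CPM, as were *Cartpt* at 42.5 against 151 CPM and *Vgf* at 10.5 against 21.3 CPM.

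Axon guidance and migration genes were also divided, with 6 of 35 higher and 8 lower. The netrin receptor genes *Unc5a*, *Unc5c* and *Unc5d* were higher, with *Unc5c* at 669 ± 17 CPM against 292 ± 10.2 CPM (1.15 ± 0.03, edgeR FDR = 3.12e-12) and *Unc5d* at 45.5 against 11.5 CPM. The semaphorin co-receptor gene *Nrp2* was higher at 47.4 against 21.5 CPM, while its relative *Nrp1* was lower at 37.9 against 76.3 CPM. The Slit receptor gene *Robo2* was lower at 79.8 against 206 CPM and *Epha5* at 39 ± 8.43 CPM against 212 ± 35.9 CPM (-2.50 ± 0.04, FDR = 5.26e-12). *Cbln1*, which encodes a secreted synapse organizer, was the 1 of 15 such genes called higher, at 488 against 197 CPM, while 4, *Cbln2*, *C1ql1*, *C1ql3* and *Lrrtm1*, were lower. Of 31 ion channel genes 2 were higher, including the calcium channel subunit gene *Cacna2d1* at 393 against 126 CPM, and 3 were lower, the potassium channel genes *Kcnd2*, *Kcnn2* and *Kcnq3*.

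Genes of the cerebellar rhombic lip and its other progeny gave a mixed result. *Neurod1*, *Neurod6* and *Barhl2*, transcription factor genes of the granule lineage, were higher at 1529.6 against 588 CPM, 251 against 81.8 CPM and 81.1 against 33.9 CPM, and 5 of the 24 genes of that list were lower. *Atoh1* itself was lower at 15.2 ± 3.4 CPM against 32.1 ± 11 CPM (-1.12 ± 0.13, edgeR FDR = 1.98e-04). Of 5 rostral cerebellar genes *En2* was higher, at 121 against 32.8 CPM, and *Irx2* and *Irx5* were lower, at 36.9 against 139.99 CPM and 5.04 against 16.9 CPM. *Rspo2*, which encodes a Wnt signal enhancer, was higher at 47 against 2.66 CPM, whereas the progenitor genes *Sox2*, *Sox9*, *Hes1*, *Hes5* and *Wls* were lower, with *Hes1* at 3.37 against 39.8 CPM. The Hox genes *Hoxa2*, *Hoxa3* and *Hoxb3* were lower, 3 of 4 tested, with *Hoxb3* at 10.4 against 69.6 CPM. In addition 6 of 7 glial genes were lower, such as *Apoe* at 22.2 against 136 CPM. The Hox genes named here, and *Sox2*, *Sox9*, *Hes1* and *Wls*, were each carried by under 10% of Eomes-high cells in every library. They entered the fit only through the other cells. Of the 13 glial genes, 2 reached 10% of Eomes-high cells in either genotype. The counts lower in these lists are thus shaped by the filter. Of 14 genes listed for cell cycle exit and its control, *Btg1* and *Gadd45g*, which act against division, were higher at 369 against 168 CPM and 136 against 57.5 CPM, and 3 were lower, the cyclin D1 gene *Ccnd1* at 11.2 against 77.8 CPM, *Myc* at 4.45 against 11.8 CPM and *Mycn* at 32.2 against 62.6 CPM, with a median difference of -0.04 over the list. Cells with a *Mki67* or *Top2a* UMI were left out of both populations. Of the 2 other G2/M genes tested *Cenpf* was higher, at 92.3 against 13.3 CPM, and 0 were lower. Of 13 S phase genes 0 were higher and 3 were lower, with a median difference of -0.62.

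The genes with the largest rise among those at 50 CPM or more included *Samd3*, *Tac2*, *Grp*, *Calb2*, *Patj*, *Lmx1a*, *Ptpre*, *Tmem200a*, *Frmd4b*, *Galnt15* and *Tmem108*. *Patj*, which encodes a scaffold protein of cell polarity, stood at 90.2 to 103 CPM against 4.36 to 6.51 CPM over the libraries (4.04 ± 0.05). *Frmd4b* stood at 281 to 341 CPM against 27.2 to 37.3 CPM (3.29 ± 0.04) and *Tmem108* at 322 to 444 CPM against 40.1 to 62.4 CPM (2.83 ± 0.05). The 12 with the largest fall were *Crabp1*, *Zfp36l1*, *Gabrg1*, *Sst*, *Ccnd1*, *Hoxb3*, *Sfrp1*, *Apoe*, *Cntnap5a*, *Snhg11*, *Sparcl1* and *Bcl11a*, of which *Crabp1*, a retinoic acid binding protein gene, was at 11.2 against 129 CPM.

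**Figure D2:**
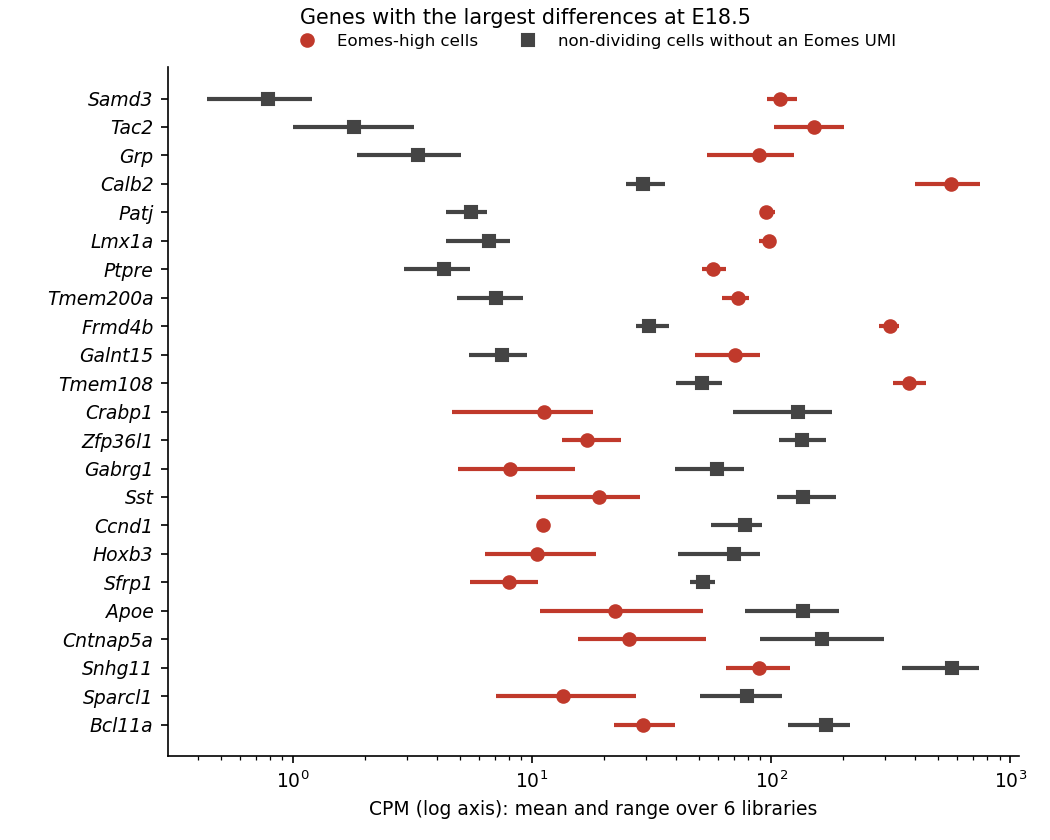
CPM (log axis) in Eomes-high cells (red circles) and in non-dividing cells with no *Eomes* UMI (dark squares), as the mean and the range over 6 E18.5 libraries. The genes are among those with the largest called difference in each direction, and *Samd3* has the widest gap, 109 against 0.785 CPM.

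The *Nhlh1* cells, whose profile is that of newborn granule neurons from the same rhombic lip, formed a further comparison. They numbered 162 to 249 per library. Of 9448 genes, 542 (5.74%) were higher in Eomes-high cells and 311 (3.29%) were lower under the same thresholds. Of the transcription factor genes, 6 of 18 were higher, namely *Lmx1a*, *Otx2*, *Ebf2*, *Sox4*, *Bcl11b* and *Zfhx4*, and 3 were lower, namely *Sox11*, *Insm1* and *St18*, which are genes of early neuronal differentiation. *Lmx1a* averaged 97.7 ± 5.44 CPM against 1.24 ± 1.3 CPM and *Insm1* 138 ± 12 CPM against 419 ± 28.5 CPM (edgeR FDR = 4.94e-11 and 1.85e-23). Among granule lineage genes 7 of 22 were lower, including *Nhlh2* at 142 against 356 CPM, *Tlx3* at 36.5 against 131 CPM, *Reln* at 268 against 581 CPM and *Pde1c* at 98.4 against 383 CPM, and *Neurod6* was the one higher. *Nhlh1* and the Hox genes defined the *Nhlh1* cells and are not counted.

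Of 33 guidance and migration genes 15 were higher and 8 lower, with a median difference of 0.74 beside 0 for all genes. The semaphorin receptor genes *Nrp1*, *Nrp2*, *Plxna1*, *Plxna2* and *Plxna4* were higher, with *Nrp2* at 47.4 ± 6.2 CPM against 1.11 ± 0.616 CPM (5.35 ± 0.15, edgeR FDR = 1.73e-22) and *Plxna2* at 121 against 11 CPM. *Slit1*, *Slit2* and *Slit3*, which encode ligands of Robo receptors, were higher as well, and *Robo1*, *Robo2* and the netrin receptor gene *Dcc* were lower. Of 10 glutamate receptor genes 4 were higher and none was lower, with *Grin1* at 26.3 against 7.71 CPM and *Grin2b* at 195 against 67.5 CPM. Of 30 ion channel genes 9 were higher, including the calcium channel gene *Cacna1e* at 73.8 against 12.4 CPM and the sodium channel gene *Scn3a* at 67.4 against 9.19 CPM, and 3 were lower. The vesicular glutamate transporter gene *Slc17a6* was higher at 169 against 32.1 CPM.

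Maturation genes did not move in one direction. *Syn2*, a synaptic vesicle gene, and *Celf4* were higher, at 89.9 against 24.9 CPM and 785 against 208 CPM, while the neurofilament genes *Nefl* and *Nefm* and the growth cone gene *Gap43* were lower, with *Nefm* at 169 against 668 CPM and *Gap43* at 996 against 3128 CPM. The other 13 of the 18 genes were not called. Outside the lists, *Car10*, *Opcml*, *Ptpre* and *Patj* were among the 12 largest rises, with *Car10* at 103 ± 12.4 CPM against 2.05 ± 0.861 CPM. *Id1*, an inhibitor of basic helix-loop-helix factors, *Pdgfra*, *Epha5*, *Cdk6* and *Mfap4* were among the 12 largest falls, with *Id1* at 8.4 against 110.5 CPM and *Pdgfra* at 10.8 against 103 CPM. *Mab21l2*, listed for its response to the *Atoh1* mutation at E14.5 in earlier results of these data, was higher at 228 against 10.4 CPM.

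A smaller group of non-dividing cells had no *Eomes* UMI but at least 3 UMIs each of *Lmx1a* and *Bcl11b*. Only 4 libraries held 10 or more of them, with 26, 17 and 28 cells in the controls and 18 in mutant replicate 1, and the comparison is limited to those libraries. So few cells held few UMIs, and the values of this population are the least precise here. Of 9477 genes, 427 (4.51%) were higher in Eomes-high cells and 361 (3.81%) were lower. *Tac2* averaged 147 ± 47.2 CPM (SD, n = 4 libraries) in Eomes-high cells and was at 0 in the *Bcl11b* *Lmx1a* cells of all 4. *Samd3* averaged 101 ± 6.91 against 1.48 ± 2.97 CPM and *Grp* 86.5 ± 30.6 against 2.73 ± 3.6 CPM. All 4 rostral cerebellar genes tested were higher, namely *En1* at 67.5 against 6.31 CPM, *En2* at 115 against 3.5 CPM, *Irx1* at 49.1 against 9.43 CPM and *Irx2* at 37.6 against 22.9 CPM, the last in 3 of 4 libraries. *Calb2*, at 522 ± 82.7 against 214 ± 124 CPM, and *Otx2*, at 482 ± 40.6 against 297 ± 72.6 CPM, were not called.

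In the other direction, *Spock3* and *Pnoc*, the prepronociceptin gene, were at 6.48 against 147 CPM and 2.21 against 58.9 CPM. Of 31 guidance and migration genes 14 were higher in Eomes-high cells, with *Sema3a* at 46.6 against 6.36 CPM, and 3 were lower, *Nrp1* at 39.5 against 301 CPM, *Plxna1* and *Reln*, with a median difference of 0.99 over the list. Of 23 granule lineage genes 8 were higher, with *Nhlh1* at 75.9 against 4.44 CPM, and 3 were lower, *Reln* at 268 against 722 CPM, *Zic4* at 494 against 1309 CPM and *Etv1* at 12.7 against 65.1 CPM. Of 10 glutamate receptor genes 4 were lower, including *Gria4* at 15.2 against 36.6 CPM and *Grm5* at 25.8 against 134 CPM, and *Grik2* was higher. *Celf4* was the 1 of 18 maturation genes called, lower at 760.3 against 1699 CPM. *Ccnd2*, which encodes cyclin D2, was higher at 715 ± 124 against 106 ± 8.44 CPM (edgeR FDR = 7.18e-26). With a mitochondrial limit of 5% only 2 libraries, control replicate 1 and mutant replicate 1, still held 10 or more of these cells (15 and 11), and the count of calls was 427 in all, instead of 788.

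The Eomes-high cells differed among themselves. They were sorted by the UMIs of 1 gene at a time, with limits and some of the compared genes set after the values were seen, so the following levels are a description with no test. The 1999 cells with at least 5 *Calb2* UMIs averaged 227 CPM of *Scg2*, the secretogranin II gene, against 65.6 CPM in all Eomes-high cells, 680.5 against 312 CPM of the cannabinoid receptor gene *Cnr1*, and 337 against 118 CPM of the adhesion gene *Negr1*. Their *Nhlh1* was at 16.9 against 72.3 CPM and their *Ccnd2* at 195 against 691 CPM. The 829 cells with at least 3 *Tac2* UMIs held less *Calb2*, 284 CPM, and more *Eomes*, 1622 against 1065 CPM. The 869 cells with at least 3 *Grp* UMIs held 751 CPM of *Calb2* and 248 against 121 CPM of *En2*.

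Other groups were further from the markers *Calb2*, *Grp* and *Samd3*. The 1131 cells with at least 3 *Bcl11b* UMIs averaged 514 against 183 CPM of the nuclear receptor gene *Nr2f2*, 612 against 367 CPM of *Barhl1*, and little *Tac2* (11.8 CPM) or *En1* (17.1 CPM). Their *Lmx1a* was higher, at 135 against 97.7 CPM, while it was at 38.3 CPM in the *Nhlh1* group and 31.7 CPM in the *Tlx3* group. The 1034 cells with at least 3 *Nhlh1* UMIs held 48.9 CPM of *Calb2*, 1134 against 653 CPM of *Igfbpl1* and 1333 against 738 CPM of *Sox11*. The 999 cells with a *Tlx3* UMI held 238 against 66.1 CPM of *En1*, 274 against 79.8 CPM of *Robo2*, 432 against 268 CPM of *Reln* and 605 CPM of *Eomes*, below the average. No group was free of *Calb2*, and 1 cell can belong to more than 1 group. A Scrublet score within the top 7.5% of the library was held by 13.2 to 23.8% of the *Nhlh1* group, 13 to 26.1% of the *Tlx3* group, 8.98 to 16.5% of the *Bcl11b* group and 7.53 to 11.2% of the *Calb2* group over the libraries, against 6.4 to 9.08% of all Eomes-high cells.

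**Figure D3:**
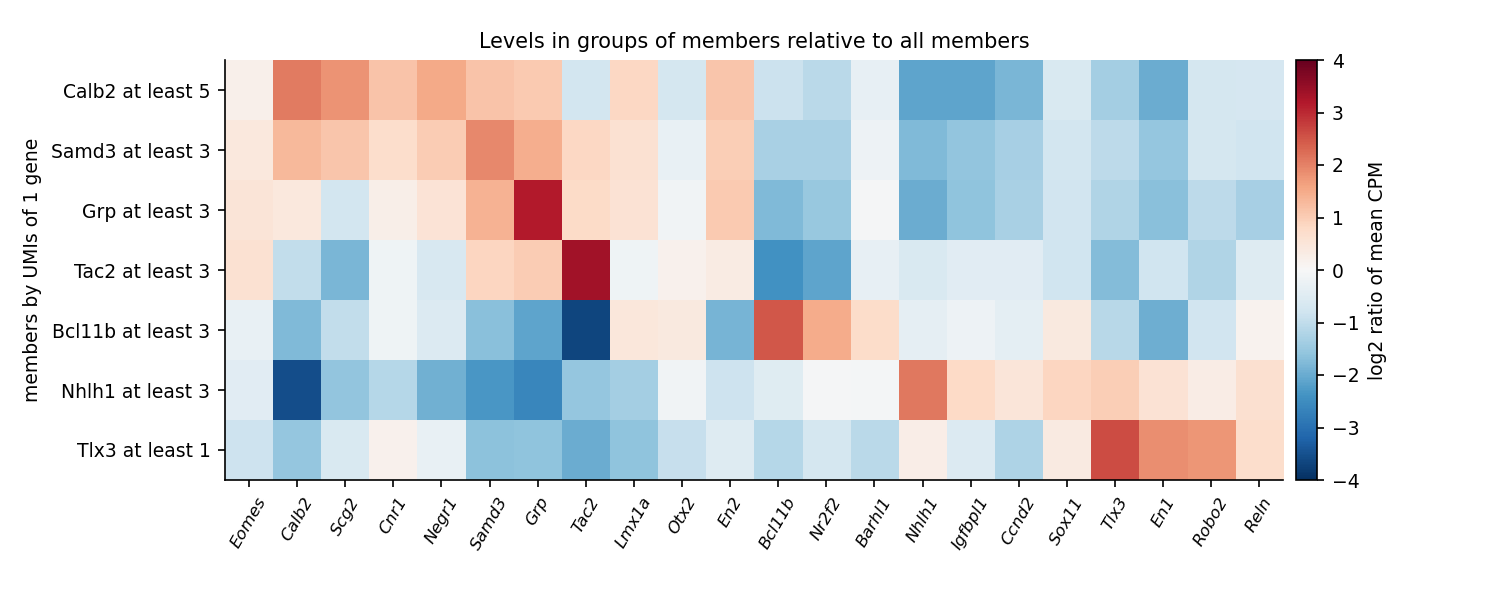
Log2 ratio of the mean CPM over 6 E18.5 libraries in groups of Eomes-high cells (rows, members with the given UMIs of 1 gene) to that in all Eomes-high cells, red for higher and blue for lower. The gene that chose a row is high in it by construction. The *Bcl11b* row is red at *Nr2f2* (514 against 183 CPM) and the *Tlx3* row at *En1* (238 against 66.1 CPM).

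Whether the *Atoh1* hypomorph changed the number of these cells was asked from their share of all kept cells, 1 value per embryo. The control libraries held 1422 of 8061 (17.6%, 95% Wilson interval 16.82 to 18.49%), 1502 of 9454 (15.9%, 95% Wilson interval 15.16 to 16.64%) and 1429 of 9133 (15.6%, 95% Wilson interval 14.92 to 16.41%). The mutant libraries held 1776 of 11355 (15.6%, 95% Wilson interval 14.98 to 16.32%), 1281 of 8420 (15.2%, 95% Wilson interval 14.46 to 16%) and 1146 of 8631 (13.3%, 95% Wilson interval 12.58 to 14.01%). The intervals cover counting error only. The mutant share, 14.7 ± 1.26% (SD, n = 3), was below the control share, 16.4 ± 1.09%, by 1.68 points, and lower in all 3 littermate pairs. The libraries did not overlap, but by a narrow margin, and the exact two-sided permutation p of 0.1 is the smallest that 3 against 3 can give. The exact sign-flip permutation of the 3 littermate differences likewise gave 0.25, its smallest p. The difference was -1.06 points without control replicate 1 and -0.964 without mutant replicate 3. The libraries overlapped in 6 of 7 alternatives and stayed apart only with at least 3 *Eomes* UMIs. The exact permutation p was 0.6 with a mitochondrial limit of 5%, 0.5 with at least 10 *Eomes* UMIs, 0.4 with non-dividing cells as the denominator, and 0.2 without cells of high Scrublet score, with cells free of Hox UMIs as the denominator, and with each cell thinned to 5000 UMIs and at least 2 *Eomes* UMIs asked for, where the difference was -0.857 points. Sorting, and the number of all other cells, set this share as well, so it is not a count of cells in the embryo.

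Dividing cells made up a further part of the cells with at least 5 *Eomes* UMIs. Those with a *Mki67* or *Top2a* UMI made up 32.8, 27.7 and 29.9% in the controls and 36.4, 23.5 and 20.2% in the mutants. The groups overlapped, with means of 30.1 ± 2.56% and 26.7 ± 8.55% (exact permutation p = 0.5), and the first mutant library was the highest of the 6. Without it the difference was -8.27 points instead of -3.43, and without mutant replicate 3 it was -0.177. With each cell thinned to 5000 UMIs and at least 2 *Eomes* UMIs asked for, the means were 18.3 ± 0.641% in controls and 15.9 ± 4.31% in mutants. With a mitochondrial limit of 5% they were 38.35 ± 2.64% and 34.55 ± 6.28%. The groups overlapped in both settings.

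The groups among the Eomes-high cells, which were chosen after seeing the values, were compared by their share in each library. Cells with at least 3 *Bcl11b* UMIs made up 14.8 to 17.9% of Eomes-high cells in controls and 7.42 to 12.4% in mutants, cells with at least 3 *Nhlh1* UMIs 13.1 to 15.4% and 6.98 to 11.6%, and cells with at least 3 Hox UMIs 6.19 to 9.8% and 2.34 to 4.22%. Cells with at least 3 *Tac2* UMIs made up 7.19 to 9.85% and 10.5 to 11.5%. These 4 of 9 groups had libraries that did not overlap between genotypes, which with 3 against 3 gives an exact permutation p of 0.1 at best. The shares of the *Calb2*, *Grp*, *Samd3*, *Tlx3* and *Fabp7* groups overlapped between genotypes, for example 19.6 to 25.1% and 21.7 to 28.4% for *Calb2*. In the Hox group 28.3, 30.1 and 27.9% of cells had a Scrublet score in the top 7.5% in controls and 17.3, 43.3 and 61.8% in mutants, and in the *Nhlh1* group 13.2, 13.5 and 13.4% and 16.8, 19.6 and 23.8%. At least 3 Hox UMIs were also found in 6.98, 5.32 and 12.9% of dividing *Barhl1* cells with no *Eomes* UMI in controls and 8.1, 3.1 and 6.55% in mutants. Median depth per cell was lowest in mutant replicate 3. The part of these values in the shares was not tested.

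**Figure D4:**
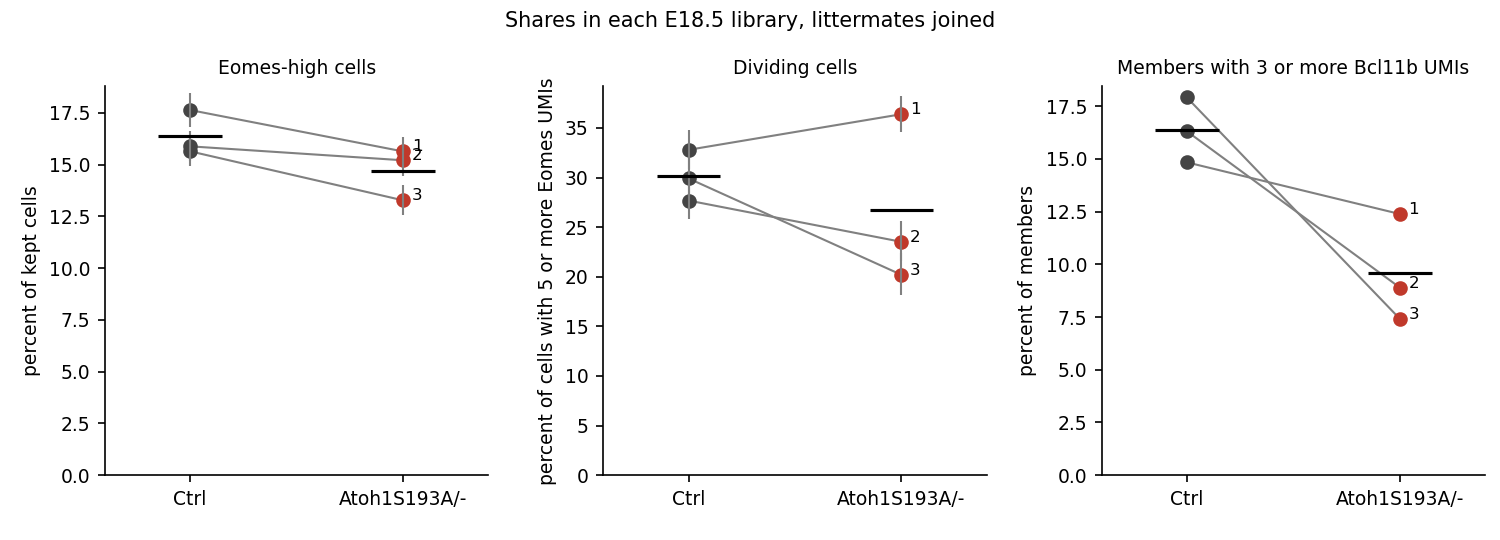
Eomes-high cells as a percent of kept cells (left), dividing cells as a percent of cells with 5 or more *Eomes* UMIs (middle) and cells with 3 or more *Bcl11b* UMIs as a percent of Eomes-high cells (right), by E18.5 library. Grey lines join littermates, numbers give the replicate, black bars the means, and thin vertical lines in the left and middle panels the 95% Wilson intervals. Each mutant library is below its littermate in the left and right panels, and 1 of 3 is above it in the middle panel.

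Genes of the Eomes-high cells were compared between genotypes on UMIs summed per library. Without the littermate pairs in the model, edgeR called 0 of 9135 genes (0%) when an FDR under 0.05 and a log2 change beyond 0.25 in either direction were asked for, with 242 genes at an unadjusted p under 0.05, and DESeq2 called 14. The 5 genes with the smallest unadjusted p in that fit, none of them called, were *Gm3764* (-0.37 ± 0.06, FDR = 0.358), *Slc44a5* (0.70 ± 0.12, FDR = 0.358), *Dact1* (0.44 ± 0.07, FDR = 0.358), *Cep112* (0.54 ± 0.09, FDR = 0.358) and *Ucp2* (-0.59 ± 0.11, FDR = 0.358). Each mutant had a littermate control, and with the pair as a block edgeR called 51 genes, 33 higher in mutants (0.361%) and 18 lower (0.197%), with 742 at an unadjusted p under 0.05. Without the third pair 0 genes were called, without the first 34 (11 of the 51) and without the second 64 (30 of the 51). The third pair was also the only female pair, so pair and sex cannot be told apart here. All 51 genes had the same direction in the fit without pairs, but both fits used the same libraries, so this is no separate support. All values below are from the blocked fit, as log2 changes of mutant against control with SE. In such sums fewer cells that carry a gene and less of its RNA per cell cannot be told apart. The share of Eomes-high cells with a Hox UMI was 23.8, 19.6 and 31.4% in controls and 21.6, 8.35 and 15.2% in mutants.

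Among the 18 genes lower in mutant Eomes-high cells were *Nhlh1*, *Sox11* and *Btg1*. *Nhlh1* stood at 79.8, 92.5 and 71.7 CPM in controls and 59.7, 72.9 and 57 CPM in mutants, a change of -0.38 ± 0.05 (edgeR FDR = 3.71e-04). *Sox11*, which encodes an SRY-box factor of immature neurons, stood at 823, 787 and 819 and 678, 675 and 647 CPM (-0.30 ± 0.05, FDR = 0.00408). The mutant libraries of *Sox11* were all below the controls, while those of *Nhlh1* overlapped across pairs. *Btg1* changed by -0.27 ± 0.05 (FDR = 0.0115), also with overlap. In non-dividing cells with no *Eomes* UMI, control and mutant means were 60.4 and 55.4 CPM for *Nhlh1* and 1417 and 1224 CPM for *Sox11*. For *Btg1* they were 171 and 165 CPM. None of the 51 genes was called for a genotype effect that differed between the 2 populations (edgeR interaction). That fit called 1 of 9696 genes in all, so the lack of calls does not show that the populations shared an effect. The largest falls among genes whose libraries did not overlap were *Ucp2*, the mitochondrial uncoupling protein gene, at -0.60 ± 0.10, the receptor gene *Ror1* at -0.53 ± 0.11, *Adamtsl1* at -0.44 ± 0.08 and the cadherin gene *Cdh10* at -0.43 ± 0.07. *Bcl11b*, with 97.5, 121 and 122 CPM in controls and 81.5, 60.2 and 67.2 CPM in mutants, did not overlap either, but was not called, at -0.71 ± 0.23 (FDR = 0.707), while DESeq2 without the pairs gave it an FDR of 4.35e-05.

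Genes higher in mutants included *Samd3*, at 0.27 ± 0.05 (edgeR FDR = 0.0115), with 99.6, 95.7 and 97.6 CPM in controls and 111, 128 and 120.4 CPM in mutants. *Dact1*, an inhibitor of Wnt signaling, stood at 101, 90.0 and 78.5 CPM in controls and 129.7, 123 and 116 CPM in mutants (0.44 ± 0.05, FDR = 9.60e-05). The choline transporter-like gene *Slc44a5* stood at 10.1, 10.1 and 7.65 and 15.2, 14.8 and 16 CPM (0.70 ± 0.11, FDR = 0.00229), the largest rise. Next among genes whose libraries did not overlap were *Rreb1* at 0.65 ± 0.10, *Fam196a* at 0.56 ± 0.09 and *Lhx9* at 0.56 ± 0.10. For *Samd3* and *Dact1* too each mutant library was above every control library. *Slc44a5*, *Rreb1*, *Fam196a* and *Lhx9* were named under a rule that asked for libraries without overlap. Libraries did not overlap, in either direction, for 643 of the 9135 genes tested (7.04%). *Atoh1*, the mutated gene, stood at 13.6, 11.5 and 13.3 CPM in controls and 21.3, 16.3 and 15.2 CPM in mutants (0.45 ± 0.10, FDR = 0.0378). In non-dividing cells with no *Eomes* UMI, *Atoh1* averaged 28.1 CPM in controls and 36.1 CPM in mutants. There *Samd3* averaged 0.785 and 0.785 CPM, *Dact1* 19.2 and 19.6 CPM and *Slc44a5* 4.6 and 5.4 CPM. The S193A allele changes the coding sequence and does not delete the gene, so the level of *Atoh1* does not check the labels. *Scn3a*, 1 of 29 ion channel genes, was called at 0.40 ± 0.05, *Chgb*, 1 of 8 neuropeptide genes, at 0.32 ± 0.05, and *Syn2*, 1 of 18 maturation genes, at 0.25 ± 0.05.

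Across lists, the counts called are given beside the shares over all 9135 genes tested, 0.361% higher and 0.197% lower in mutants. Of 18 transcription factor genes other than *Eomes* 0 rose and 1, *Sox11*, fell, and of 10 signaling genes none was called, with medians of -0.06 and 0.04 beside 0 for all genes. Of 8 neuropeptide genes *Chgb* was called, and of 23 granule lineage genes *Atoh1* and *Barx2* rose and *Nhlh1* fell. *Lmx1a* stood at 88.8 to 105 CPM and *Otx2* at 436 to 525 CPM over the 6 libraries, with overlap between the genotypes. *Calb2* changed by 0.30 ± 0.09 and was not called (edgeR FDR = 0.349), and its pairs differed by 0.04, 0.51 and 0.41 on the log2 scale. Libraries of the 2 genotypes did not overlap for 643 genes (7.04%), and for 3 of 18 transcription factor genes, 3 of 10 signaling genes and 4 of 23 granule lineage genes. Of the 51 called genes 49 were also tested in Eomes-high cells with no Hox UMI, and 23 of them kept an FDR under 0.05 there. Those that did not included *Samd3* (log2 change 0.15 without Hox UMIs, from 0.27), *Nrp2* (0.18 from 0.27), *Lhx9* (0.42 from 0.56), *Syn2* (0.22 from 0.25), *Prlr* (0.30 from 0.46) and *Ror1* (-0.41 from -0.53). The summed level of the 19 neuropeptide genes was 672 to 813 CPM in controls and 832 to 1067 CPM in mutants, with no overlap, and mutant replicate 1 held the 324 CPM of *Nts*. Of 28 lists summed this way, 3 did not overlap. The others were the 4 markers, a list that holds *Eomes* itself, and the 14 genes listed for their response to the allele at E14.5, at 1121 to 1175 CPM in controls and 1037 to 1094 CPM in mutants. In that last list *Atoh1* and *Kitl* were called higher and *Nhlh1* lower, so the sum does not give the direction of its genes. With 3 against 3, a lack of overlap gives an exact permutation p of 0.1 at best.

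**Figure D5:**
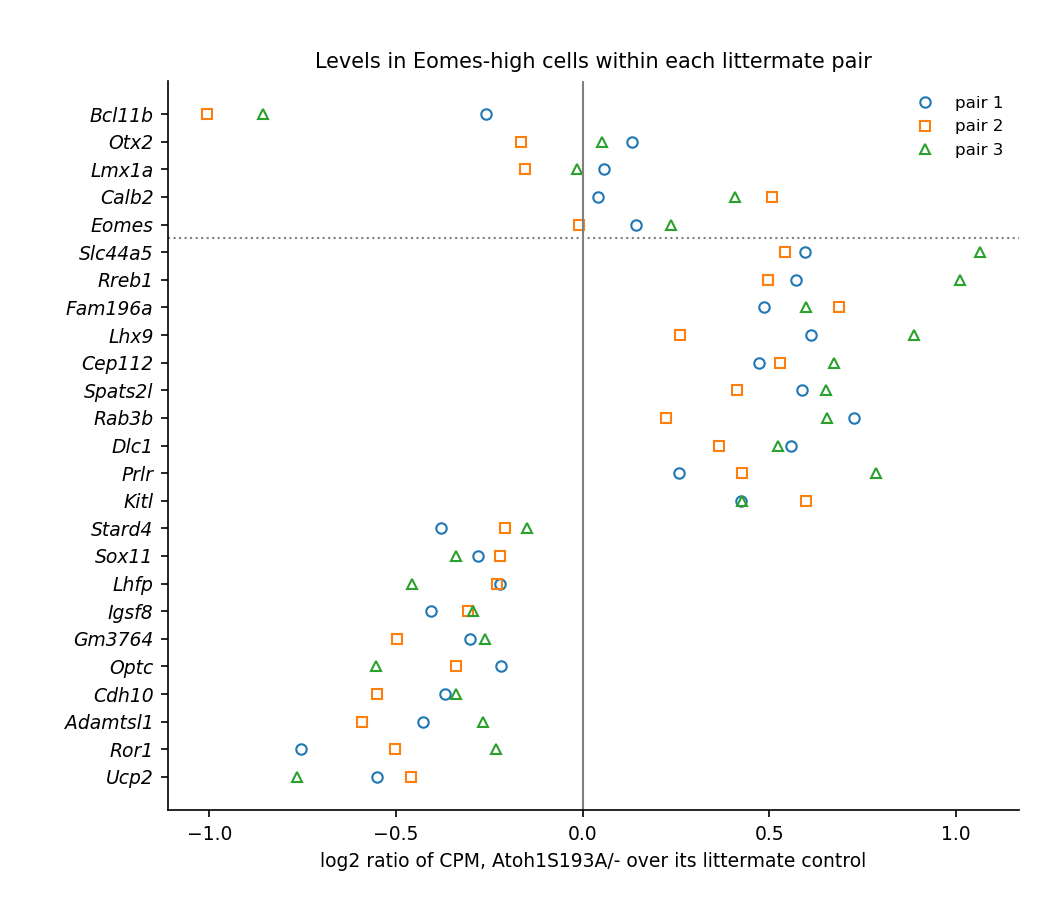
Log2 ratio of CPM in Eomes-high cells, mutant over its littermate control, for each of the 3 pairs. Below the dotted line are the genes with the largest called change in the fit with pairs whose libraries did not overlap, and above it 5 genes for comparison. *Slc44a5* lies at 0.60, 0.54 and 1.06 and *Eomes*, which chose the cells, at 0.14, -0.01 and 0.24 in the 3 pairs.

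The same rule found few cells at the other stages. At E14.5 it took 97, 68 and 136 cells in controls and 184, 69 and 172 in mutants, 0.768 to 2.31% of kept cells, with *Grp* at 0 to 0.876 CPM and *Samd3* at 0 to 4.71 CPM. *Lmx1a*, at 89 to 231 CPM, *Calb2*, at 46.1 to 282 CPM, and *Otx2*, at 68.9 to 356 CPM, were present. In the 2 control libraries of pontine nuclei at postnatal day 5, which were pooled from several pups, it took 447 and 174 cells (3.96 and 2.63%). Those held 1845 and 1889 CPM of *Grp*, 1193 and 1341 CPM of *Calb2*, 124 and 130 CPM of *Samd3* and 0.853 and 1.09 CPM of *Tac2*. Tissue and dissection differed at postnatal day 5, and stages were not tested against each other.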

How the data were processed

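Per the labels and the study's methods, the authors aligned 10x Genomics 3′ v3.1 reads to mm10 with a reporter sequence added and deposited UMI counts per gene and cell from Cell Ranger 5.0.1 (3.1.0 in 2 E14.5 control libraries), with replicates not pooled. The selection rule was applied to those raw counts, and comparison cells came from the same libraries. UMIs were summed per library and population. Genes were tested with edgeR 4.0.16 (R 4.3.3), using the quasi-likelihood test, TMM scaling and Benjamini-Hochberg adjustment, with DESeq2 1.42.0 as an alternative. A gene was tested when 10% or more of the cells of any 1 compared group carried it. The groups were the populations or, in the genotype fit, the genotypes. A gene near that limit could thus enter only through the group in which it was higher. Shares were compared by exact permutation over libraries with SciPy 1.17.1, and doublets were scored with Scrublet in Scanpy 1.11.5. No doublet caller was applied in the main results. Fits were run on simulated counts that held no difference between litters. Those runs do not show how the blocked fit behaves where litters differ. Some listed genes, and a planned test within single cells, are not reported here.

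The protocol makes same-numbered E18.5 libraries littermates, and deviations of pairs 1, 2 and 3 correlated at 0.614, 0.543 and 0.79, each above 0.1. The blocked fit is therefore given beside the unblocked one. Of libraries that are not littermates, control 1 with mutant 2 (0.203) and control 2 with mutant 1 (0.19) also passed 0.1. The rest stood at -0.596 to -0.483, so the limit alone does not separate littermates from others. Named genes were the listed genes, the 12 largest called differences per direction at 50 CPM or more, the 10 largest called genotype changes per direction whose libraries do not overlap and the 5 smallest genotype p-values without pairs. Other names (such as *Scg2*, *Cnr1*, *Negr1*, *Nr2f2*, *Igfbpl1* and *Pgm2*) were chosen after their values were seen. The genotype rule was applied to the blocked fit, since the unblocked fit called none. The members and gene lists were chosen with earlier results of these data known. Promoter sequences came from RefSeq (GRCm38.p6). Library totals at E18.5 were 108239001 to 183911797 UMIs, and Eomes-high cells summed to 11636978 to 21580397 UMIs per library.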

Additional observations from a re-analysis of the deposited data

Results flagged for a closer look

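*Zfp503*, which encodes a zinc finger protein, was the 1 gene of 9696 whose genotype effect in Eomes-high cells differed from that in the other non-dividing cells, by -0.71 on the log2 scale (edgeR interaction, FDR = 0.0150). In Eomes-high cells it stood at 24.8, 23.4 and 24.8 CPM in controls and 15, 6.94 and 9.11 CPM in mutants, with log2 ratios of mutant to littermate of -0.73, -1.75 and -1.44. In the cells with no *Eomes* UMI it stood at 37.1, 34.6 and 33.2 CPM in controls and 34.8, 16.6 and 21.5 CPM in mutants. The mutant effect within the Eomes-high cells alone was not called, with or without the littermate pairs (edgeR FDR = 0.359 with them). *Zfp503* was called again without control replicate 1 or mutant replicate 3, but not without control replicate 2 or 3 or mutant replicate 1 or 2. *Zfp503* was detected in 5.15 to 14.6% of Eomes-high cells, and at 71.6 CPM in those with at least 3 Hox UMIs against 17.3 CPM in all. Cells with at least 3 Hox UMIs made up 6.19 to 9.8% of Eomes-high cells in controls and 2.34 to 4.22% in mutants, with 28.3, 30.1 and 27.9% and 17.3, 43.3 and 61.8% of those cells in the top 7.5% of Scrublet scores, and their part in the result was not tested.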

How the results depend on the processing

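Of 94 summary values recomputed under other settings, 73 stayed the same and 21 moved. A count of calls could only be labelled as the same, within a set ratio, or as moved. The fall to 0 blocked calls without pair 3 was thus labelled as moved. A share could only keep its direction or reverse, and 0 reversed. Of 1394 values of single genes, 1252 stayed the same, 103 lost and 39 gained a call, and 0 reversed. The cause of these changes was not tested. The share of Eomes-high cells kept its direction in every setting, from -0.857 points (each cell thinned to 5000 UMIs, at least 2 of *Eomes*) to -3.33 points (of non-dividing cells).

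Genotype calls without pairs were 14 with DESeq2, 23 with no filter on low genes, 1 with a mitochondrial limit of 5%, 51 with the littermate pair as replicate block and 0 to 4 without 1 library, the 4 without mutant replicate 1. Settings for the blocked fit were chosen after seeing the data, and calls were 14 with DESeq2 and the pairs (11 shared with the 51), 223 with no filter, 81 with edgeR filterByExpr (50 shared), 33 without cells of high Scrublet score (28 shared), 25 with at least 3 *Eomes* UMIs (22 shared), 79 with at least 10 (41 shared), 26 with no Hox UMI (21 shared) and 0 to 64 without 1 pair, the 0 without pair 3. The genotype difference between populations gave 0 to 4 calls without 1 library, with 0 without control replicate 3 or mutant replicate 2, 2 without control replicate 1, 2 without mutant replicate 1 and 4 without mutant replicate 3. With no filter on low genes, Eomes-high against other non-dividing cells gave 3187 calls, 580 of them higher, and Eomes-high against Nhlh1-high Hox-negative cells gave 2367, 1642 of them higher. With a mitochondrial limit of 5%, Eomes-high against Bcl11b Lmx1a cells gave 427, from 2 libraries instead of 4. Without the library as replicate block these comparisons gave 571, 853 and 786 calls. Depth limits the detection of *Grp* and *Samd3* in single cells.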
